A study of Sus scrofa with 4 samples.

Results

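The 5 genes described here encode peptidases of the small intestinal brush border, the carpet of microvilli on the apical face of enterocytes: *ANPEP*, *ENPEP*, *DPP4*, *ACE* and *TMPRSS15*. They were measured in the ileum, the last stretch of the small intestine, of piglets aged 16 days. The low weight gain group comprised 2 samples, each a pool of 2 piglets, and the high weight gain group comprised 2 samples, each a pool of 3 piglets. All piglets came from Yorkshire × Landrace sows and Duroc boars and were suckled by lactating sows. Samples are told apart within a group by a letter, a or b, and each was hybridised to 1 single-colour pig array. The series design text describes the groups by weight at birth instead, and the sample labels were followed. Whether the lettered samples were different pools or repeats of 1 pool is not in the labels, so errors and p-values here cover only array-to-array spread, possibly of technical origin. Pooling also leaves the variation between piglets unmeasured.

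Members were all non-control probes whose accession is a RefSeq transcript of one of the 5 genes in the NCBI gene table. This gave 11 probes among 43603, and 5 genes among the 2389 that could be named. *ANPEP* and *ENPEP* had 3 probes each, *ACE* and *TMPRSS15* had 2 each and *DPP4* had 1. Of the 11 probes, 10 entered the test, because they were well above background on both arrays of at least 1 group, and 9 were well above background on all 4 arrays. The excluded probe and the 1 that was dim on a high-gain array both belonged to *TMPRSS15*.

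Brush-border peptidases finish the digestion of milk and dietary protein at the cell surface, releasing amino acids, dipeptides and tripeptides that transporters then carry into the enterocyte. Aminopeptidases such as those encoded by *ANPEP* and *ENPEP* remove residues from the amino end of a peptide, *DPP4* removes dipeptides that end in proline or alanine, and *ACE* removes dipeptides from the carboxyl end. Enteropeptidase, the product of *TMPRSS15*, differs from these, because its substrate is pancreatic trypsinogen, which it converts into trypsin, and it is known chiefly from the duodenum. Several of the enzymes also act on hormones, with *ACE* and *ENPEP* in the angiotensin system and *DPP4* on glucagon-like peptides.

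Levels are given as normalised log2 signal, which is log2 processed signal relative to the 75th percentile of the array's gene spots. A value of 0 therefore equals that percentile, and each unit is a doubling. Probes differ in how well they bind, so a gap in level between genes on an array was not read as a difference in expression. Levels, and ratios or sums over genes, were compared between groups. The tissue label was checked on *FABP6*, the ileal bile acid binding protein gene. It had 8.65 and 8.72 in low gain, against 8.55 and 8.76 in high gain, far above the percentile on every array.

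Between 32835 and 33972 of the 43803 non-control spots per array were well above background, and no spot was saturated. The scanner software placed the spread of repeat spots on low-gain array a outside its quality range. Values without that array are given where they alter a peptidase call. Calls of other genes are given with all arrays only. For 31471 probes detected on every array, arrays of 1 group differed by a median of 0.135 (low gain) or 0.145 (high gain) in absolute log2 value, and arrays of different groups by 0.168 to 0.285. With 2 arrays against 2, an exact two-sided permutation test of a single value cannot go below p = 0.333, so the comparison of groups rested on limma's moderated fit across all probes.

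The aminopeptidase and dipeptidyl peptidase genes had higher signal in low-gain ileum on 5 of their 7 probes, by 0.43 to 0.68 on the log2 scale, and on those 5 probes the groups did not overlap. The other 2 of the 7 probes, 1 of *ANPEP* and 1 of *ENPEP*, differed by 0.14 and 0.00. *ACE* differed by 0.04 on its bright probe. *TMPRSS15* was close to the detection limit. In limma's fit none of the 10 tested probes passed an adjusted p of 0.05, against 0.240% of 33265 tested probes (0.0962% higher and 0.144% lower in low gain). At an unadjusted p under 0.05, 5 of the 10 probes were higher in low gain, against 9.82% of tested probes. When the prior variance followed signal intensity, an alternative fit, 5 of the 10 passed after adjustment and all were higher in low gain, against 2.26% of tested probes called higher and 1.5% called lower (3.76% in all). The 5 probes belonged to 3 of the 5 genes, and probes of 1 gene are not independent. The fit with the intensity trend called none of the 10 without low-gain array a, the only array left out of it. Under normexp background correction with bright local backgrounds replaced, 3 of the 10 were called higher, against 1.49%, and these belonged to *ANPEP* and *ENPEP*. Both low-gain arrays lay above both high-gain arrays on 6 of the 10 probes, against 27.6% of tested probes. Of these 6, 1 was the dim *TMPRSS15* probe, which entered the test only through the low-gain arrays. The filter itself favours that arrangement for such a probe.

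**Figure D1:**
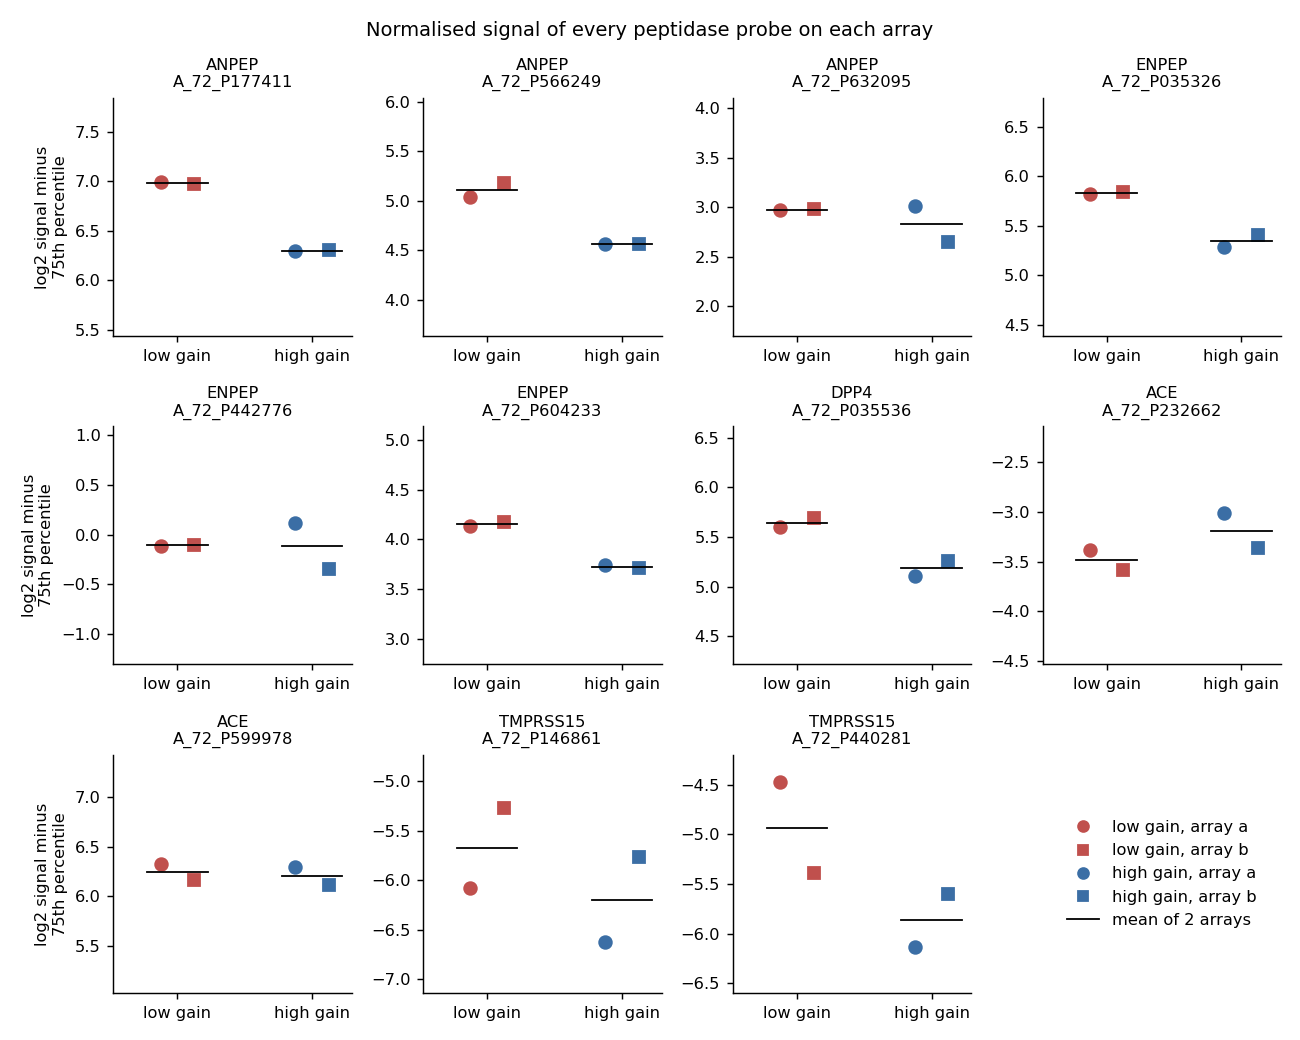
Normalised log2 signal (log2 processed signal minus the array's 75th percentile) of the 11 peptidase probes on each array, low gain left and high gain right; each panel spans the same range of log2 units around its own mean, and lines are means of 2 arrays. The panels of 5 probes of *ANPEP*, *ENPEP* and *DPP4* show both low-gain arrays above both high-gain arrays, whereas *ACE* A_72_P599978 shows overlap.

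*ANPEP* encodes aminopeptidase N, which removes neutral residues from the amino end of peptides and in pigs also serves as the receptor of transmissible gastroenteritis virus. Its brightest probe, A_72_P177411, had 6.99 and 6.97 on low-gain arrays a and b, against 6.30 and 6.31 on high-gain arrays a and b. The arrays of each group lay within 0.02 of each other, and the groups did not overlap. The means were 6.98 ± 0.01 in low gain and 6.30 ± 0.01 in high gain (SD, n = 2 each), a difference of 0.68 ± 0.10 (SE), or 1.60-fold (95% confidence interval 1.33 to 1.93). It did not pass the test (limma adjusted p = 0.141). With the intensity trend it passed (limma adjusted p = 0.00664).

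The other probes of *ANPEP* did not all repeat this. A_72_P566249 had 5.04 and 5.18 on low-gain arrays a and b, against 4.56 and 4.57 on high-gain arrays a and b, again without overlap. It differed by 0.55 ± 0.11 (limma adjusted p = 0.180, and 0.0219 with the intensity trend). A_72_P632095 had 2.97 and 2.98 in low gain, against 3.01 and 2.65 in high gain. There the groups overlapped, since high-gain array a stood above both low-gain arrays while high-gain array b stood below them. The difference was 0.14 ± 0.16 (limma adjusted p = 0.648), with an interval of -0.30 to 0.59. All 3 probes were designed to the same transcript, NM_214277. A log ratio of 2 probes within an array does not depend on scaling between arrays, and that of A_72_P177411 over A_72_P632095 was 4.02 and 3.99 in low gain, against 3.29 and 3.66 in high gain. It differed by 0.53 without overlap (exact permutation p = 0.333, the smallest this design allows).

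*ENPEP* encodes aminopeptidase A, which removes acidic residues from the amino end and converts angiotensin II to angiotensin III. A_72_P035326, its brightest probe, had 5.82 and 5.84 on low-gain arrays a and b, against 5.29 and 5.41 on high-gain arrays a and b. The low-gain arrays were both higher. The means were 5.83 ± 0.02 in low gain and 5.35 ± 0.08 in high gain (SD, n = 2 each), which differ by 0.48 ± 0.10 (SE), or 1.40-fold (95% interval 1.14 to 1.71, limma adjusted p = 0.188). A_72_P604233 had 4.13 and 4.18 in low gain, against 3.74 and 3.71 in high gain, and differed by 0.43 ± 0.10 (limma adjusted p = 0.194). The intensity trend brought both past the test (limma adjusted p = 0.0277 and 0.0309).

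The third *ENPEP* probe, A_72_P442776, had -0.11 and -0.10 in low gain, against 0.12 and -0.34 in high gain. High-gain array a stood above both low-gain arrays and high-gain array b below them, the same arrangement as on the third probe of *ANPEP*. The group means were -0.11 ± 0.01 in low gain and -0.11 ± 0.33 in high gain (SD, n = 2 each). The difference was 0.00 ± 0.19 (SE), with an interval from -0.52 to 0.53 that covers the differences seen on the brighter probes. The within-array log ratio of A_72_P035326 over A_72_P442776 was 5.93 and 5.94 in low gain, against 5.17 and 5.75 in high gain, whereas that of A_72_P035326 over A_72_P604233 overlapped between groups (1.69 and 1.66 against 1.55 and 1.69).

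*DPP4* encodes dipeptidyl peptidase 4, which also inactivates glucagon-like peptides and trims several chemokines. Its only probe, A_72_P035536, had 5.60 and 5.69 on low-gain arrays a and b, against 5.11 and 5.26 on high-gain arrays a and b. Both low-gain arrays were higher than both high-gain arrays. The means were 5.64 ± 0.07 in low gain and 5.18 ± 0.11 in high gain (SD, n = 2 each), a difference of 0.46 ± 0.12 (SE) or 1.37-fold (95% interval 1.10 to 1.72). The limma adjusted p was 0.201, and 0.0382 with the intensity trend. With no second probe, the *DPP4* value could not be checked within the gene.

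*ACE* encodes angiotensin-converting enzyme, which in the brush border removes dipeptides from the carboxyl end of luminal peptides and in vessels forms angiotensin II. A_72_P599978, designed to transcript NM_001033015, had 6.33 and 6.17 on low-gain arrays a and b, against 6.30 and 6.12 on high-gain arrays a and b. The groups overlapped, and array a exceeded array b by 0.16 in low gain and by 0.18 in high gain. The means were 6.25 ± 0.11 in low gain and 6.21 ± 0.13 in high gain (SD, n = 2 each). The difference was 0.04 ± 0.13 (SE, limma adjusted p = 0.890), and its interval of -0.32 to 0.39 leaves room for a 1.31-fold higher or a 0.801-fold level in low gain.

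The other *ACE* probe, A_72_P232662, was designed to transcript NM_001083941 and was dim. It had -3.38 and -3.59 in low gain, against -3.01 and -3.36 in high gain, so that both low-gain arrays were lower. That arrangement held for 26.9% of tested probes. The difference was -0.30 ± 0.17 (limma adjusted p = 0.424). The sources used here do not say which form of the enzyme each transcript encodes.

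*TMPRSS15* was barely detected. A_72_P440281 gave processed signals of 18.5 and 11.1 on low-gain arrays a and b, against 6.88 and 9.71 on high-gain arrays a and b, and the scanner software's own error estimate was between 13.4% and 25% of the signal. For comparison, that error was 10% for each array on the brightest *ANPEP* probe. The probe was well above background on both low-gain arrays and on 1 of 2 high-gain arrays. As normalised log2 signal it had -4.47 and -5.39 in low gain, against -6.13 and -5.60 in high gain. The groups did not overlap, but the low-gain arrays lay 0.92 apart, nearly as far as the group difference of 0.93 ± 0.39 (SE, limma adjusted p = 0.311). The 95% interval ran from -0.14 to 2.01, and the difference was 0.47 without low-gain array a and 1.40 without low-gain array b.

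The other *TMPRSS15* probe, A_72_P146861, was well above background on 1 of 2 arrays in each group and was not tested. Its processed signals were 6.07 and 12.04 in low gain, against 4.90 and 8.65 in high gain, and its normalised values overlapped (-6.08 and -5.27 against -6.62 and -5.77). On this probe array b was the higher in each group, whereas on A_72_P440281 array a was the higher in low gain.

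**Figure D2:**
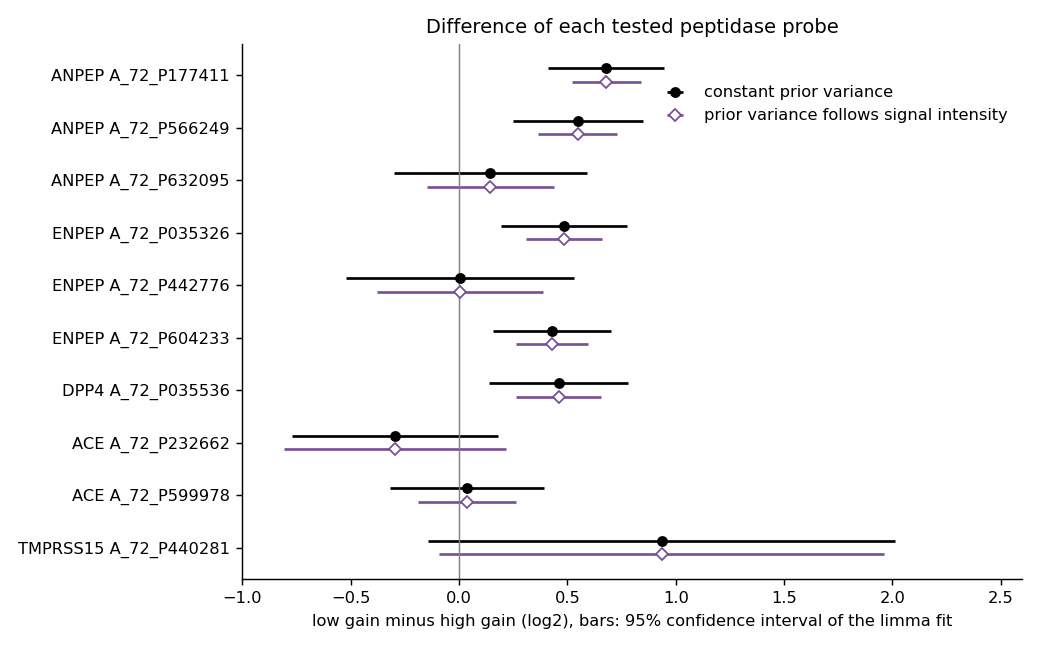
Low gain minus high gain (log2) for the 10 tested peptidase probes with 95% confidence intervals of the limma fit; filled circles are the fit with a constant prior variance and open diamonds the fit in which it follows signal intensity. The intervals of 5 probes of *ANPEP*, *ENPEP* and *DPP4* lie above 0 in both fits before adjustment, and that of *TMPRSS15* runs from -0.14 to 2.01 in the first.

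Taking the brightest probe of each gene, the 5 genes had a median difference of 0.48, beside 0.025 over all 2158 genes with a tested probe. With the intensity trend 3 of the 5 were called higher, against 5.19% of the 2158 genes. Both low-gain arrays lay above both high-gain arrays for 4 of the 5, against 32.6%. Of these 4, *TMPRSS15* entered the test only through the low-gain arrays, and that filter favours such an arrangement. The gap of *ANPEP*, *ENPEP* and *DPP4* to *ACE* did not depend on scaling between arrays. The log ratio of *ANPEP* over *ACE* was 0.66 and 0.80 in low gain, against -0.0035 and 0.19 in high gain, a difference of 0.64. The corresponding differences were 0.44 for *ENPEP* and 0.42 for *DPP4*, and none of the 3 ratios overlapped between groups (exact permutation p = 0.333 each, the smallest possible). The share of all genes whose ratio to *ACE* did not overlap was not computed. The gap did depend on the probe, since *ANPEP* A_72_P632095 differed by 0.14 and *ENPEP* A_72_P442776 by 0.00, beside 0.04 for *ACE*.

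**Figure D3:**
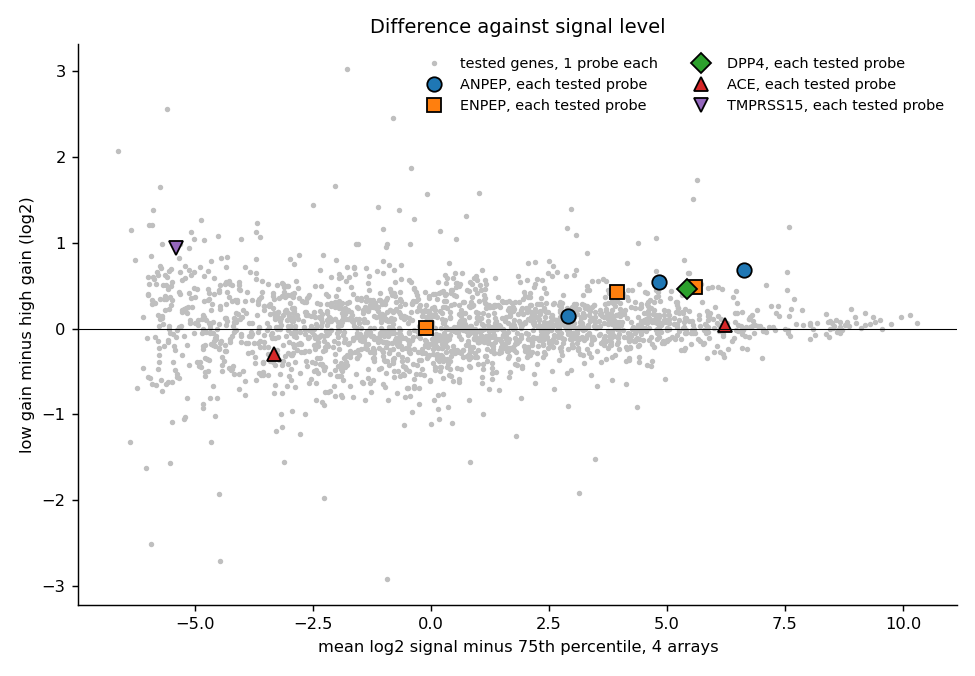
Low gain minus high gain (log2) against mean normalised log2 signal over 4 arrays for 2158 tested genes, 1 probe each (grey), and for the 10 tested peptidase probes (coloured by gene). The differences of all genes spread more widely at low signal, where *TMPRSS15* lies at 0.93, than at high signal, where *ANPEP* A_72_P177411 lies at 0.68 and *ACE* A_72_P599978 at 0.04.

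Markers of enterocytes also had higher means in low gain. Of the 16 genes in that marker list 11 had a tested probe, 10 of which had a higher mean in low gain (53.4% of all tested genes did) and none of which passed the test. With the intensity trend 4 of the 11 were called higher, against 5.19% of all tested genes. Their median difference was 0.37, and their summed signal, in multiples of the 75th percentile, was 461 and 474 on low-gain arrays against 397 and 408 on high-gain arrays. No marker was at 0. *CDH1*, the epithelial cadherin gene, had the largest difference of the 11, 0.58, with its other probe at 0.27. *FABP2*, the intestinal fatty acid binding protein gene, differed by 0.48, with its other probe at 0.51. *APOA1*, an apolipoprotein gene, differed by -0.24, with its other probe at -0.25. In pooled tissue, more enterocytes and more RNA per enterocyte cannot be told apart.

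Set against the mean of the 11 enterocyte markers on the same array, the peptidase differences were smaller. *ANPEP* was 2.11 and 2.08 above that mean in low gain, against 1.76 and 1.65 in high gain, a difference of 0.39. *ENPEP* was 0.94 and 0.95 above it in low gain, against 0.76 and 0.75 in high gain, and *DPP4* was 0.72 and 0.80 above it in low gain, against 0.58 and 0.61 in high gain. The differences were 0.19 for *ENPEP* and 0.17 for *DPP4*. The groups did not overlap for these 3 genes, but no probe of theirs passed the test on this scale (limma adjusted p = 0.106 for the brightest *ANPEP* probe). *ACE* turned to the other side, with 1.45 and 1.27 in low gain against 1.77 and 1.47 in high gain, a difference of -0.26 (limma adjusted p = 0.298). The groups did not overlap for *ACE* either, with low gain below. On this scale A_72_P632095 of *ANPEP* also turned to -0.15 and A_72_P442776 of *ENPEP* to -0.29. The dim *TMPRSS15* probe differed by 0.64, and its groups overlapped. The share of all genes without overlap was not computed on this scale. The part of the marker shift in the peptidase differences was not tested beyond these values.

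**Figure D4:**
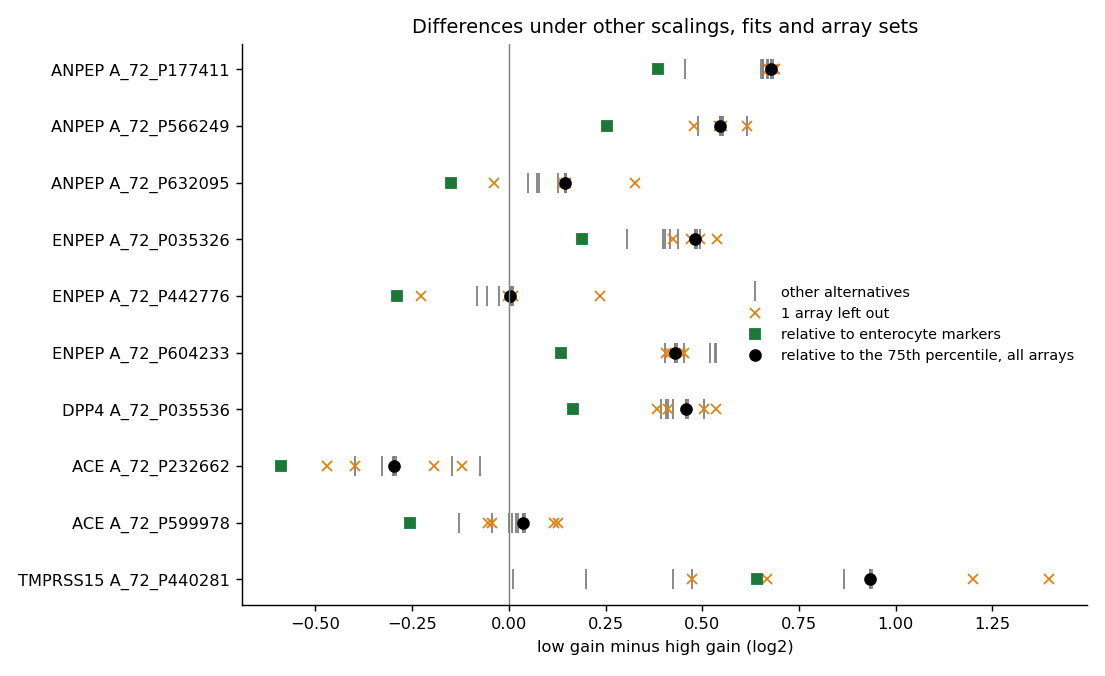
Low gain minus high gain (log2) of the 10 tested peptidase probes relative to the 75th percentile (black), relative to 11 enterocyte markers (green), with 1 array left out (orange) and under other scalings, fits and the mean over a gene's probes (grey). *ANPEP* A_72_P177411 stays between 0.39 and 0.69, whereas *ACE* A_72_P599978 lies on both sides of 0.

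Markers of other cell types present in a slice of gut wall had shifts of their own. Smooth muscle markers, of which 6 of 10 were tested, had a median of 0.46 and summed signals of 324 and 318 on low-gain arrays against 248 and 245 on high-gain arrays. None passed the test. *DES*, the desmin gene and the brightest of the 6, differed by 0.51, but its other 2 probes gave -0.34 and -0.02. *ACTA2*, the smooth muscle actin gene, differed by -0.25, and its other 3 probes ran from -0.61 to 0.23. The intensity trend called 4 of the 6 higher, against 5.19% of all tested genes. Goblet cell markers had a median of 1.02 over 4 of 9 genes. Their summed signals were 179 and 175 in low gain against 86.5 and 93.0 in high gain. The trend called 3 of the 4 higher, against the same 5.19%. In that list *CLCA1* rose in low gain (1.73, limma adjusted p = 0.0393). T and NK cell markers had a median of 0.48 over 10 of 13 genes. Their sums were 25.9 and 26.6 in low gain against 24.1 and 22.6 in high gain. The trend called 4 of the 10 higher and 1 lower, against 5.19% of all tested genes higher and 1.5% of tested probes lower. None of these markers was at 0, and their part in the peptidase differences was not tested. DPP4 is also carried by T cells and ANPEP by myeloid cells, and the 6 tested macrophage and dendritic cell markers of 10 had a median of -0.27, with sums of 25.3 and 24.6 in low gain against 27.8 and 27.5 in high gain. The trend called 1 of the 6 lower, against 1.5% of tested probes.

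The remaining apical peptidases mostly had lower means in low gain, unlike *ANPEP*, *ENPEP* and *DPP4*, though the contrast between the lists was not tested. Of 18 genes in that list 6 had a tested probe, none passed in either direction in the fit or with the intensity trend, and their median difference was -0.23. The dipeptidase gene *DPEP1* differed by -0.33, *FOLH1B*, of the folate hydrolase family, by -0.29 and *LNPEP*, which encodes an aminopeptidase of endosomes and the cell surface, by -0.44. *XPNPEP2*, the gene of an aminopeptidase specific for proline bonds, differed by 0.12, but its other probe gave -0.65. *GGT1*, which encodes a glutathione-cleaving transferase, differed by 0.17. Of the list of brush-border carbohydrate and lipid hydrolases only *NEU1* (0.37) and *LIPA* (-0.88) were tested, and both encode lysosomal enzymes, so the disaccharidases were not analysed here. The intensity trend called *LIPA* lower (limma adjusted p = 0.0337), against 1.5% of tested probes.

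Genes downstream of peptide digestion were measured in part. Of 16 peptide and amino acid transporter genes 6 were tested, with a median of 0.28, and none passed. With the intensity trend 2 were called higher, against 5.19% of all tested genes. These were *SLC7A9* (0.55, its other probe 0.42) and *SLC1A1* (0.57, its other 3 probes 0.13 to 0.19). *SLC7A9* and its partner *SLC3A1* (0.39, its other 3 probes -0.20 to 0.35) form the apical carrier of cystine and basic amino acids, and *SLC1A1* encodes a carrier of acidic amino acids. *SLC15A1*, the gene of the apical transporter of dipeptides and tripeptides, differed by 0.06 with its other probe at -0.08, and its groups overlapped. *SLC7A7*, of the basolateral carrier of basic amino acids, differed by 0.18, but its other probes ran from -0.59 to 0.16.

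Among genes tied to the hormonal and zymogen substrates of the peptidases, values went both ways. Of 19 genes for *DPP4* substrates and their receptors 9 were tested, with a median of 0.20, and none passed. *CCL5*, a chemokine gene, differed by 0.88 and the chemokine receptor gene *CXCR4* by -0.57. The intensity trend called both, against 5.19% of all tested genes called higher and 1.5% of tested probes called lower. *GCG*, which encodes the glucagon-like peptides, differed by 0.04. Of 13 renin-angiotensin and kinin genes 3 were tested and none passed, among them the bradykinin receptor gene *BDKRB1* (0.21). Of the 18 genes of pancreatic zymogens and trypsin inhibitors 6 were tested and none passed. The inhibitor family genes *SPINK4* and *SERPINA1* differed by 0.46 and 0.39. With the intensity trend 1 of the 6, *SPINK4*, was called higher, against the same 5.19%. The goblet cell list also holds *SPINK4*. The zymogen genes *CELA1* (0.05), *CELA2A* (-0.41), *CPA1* (-0.50) and *CPB1* (-0.10) had mean levels below -2 in both groups, and trypsinogen, the substrate of enteropeptidase, was not analysed here.

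**Figure D5:**
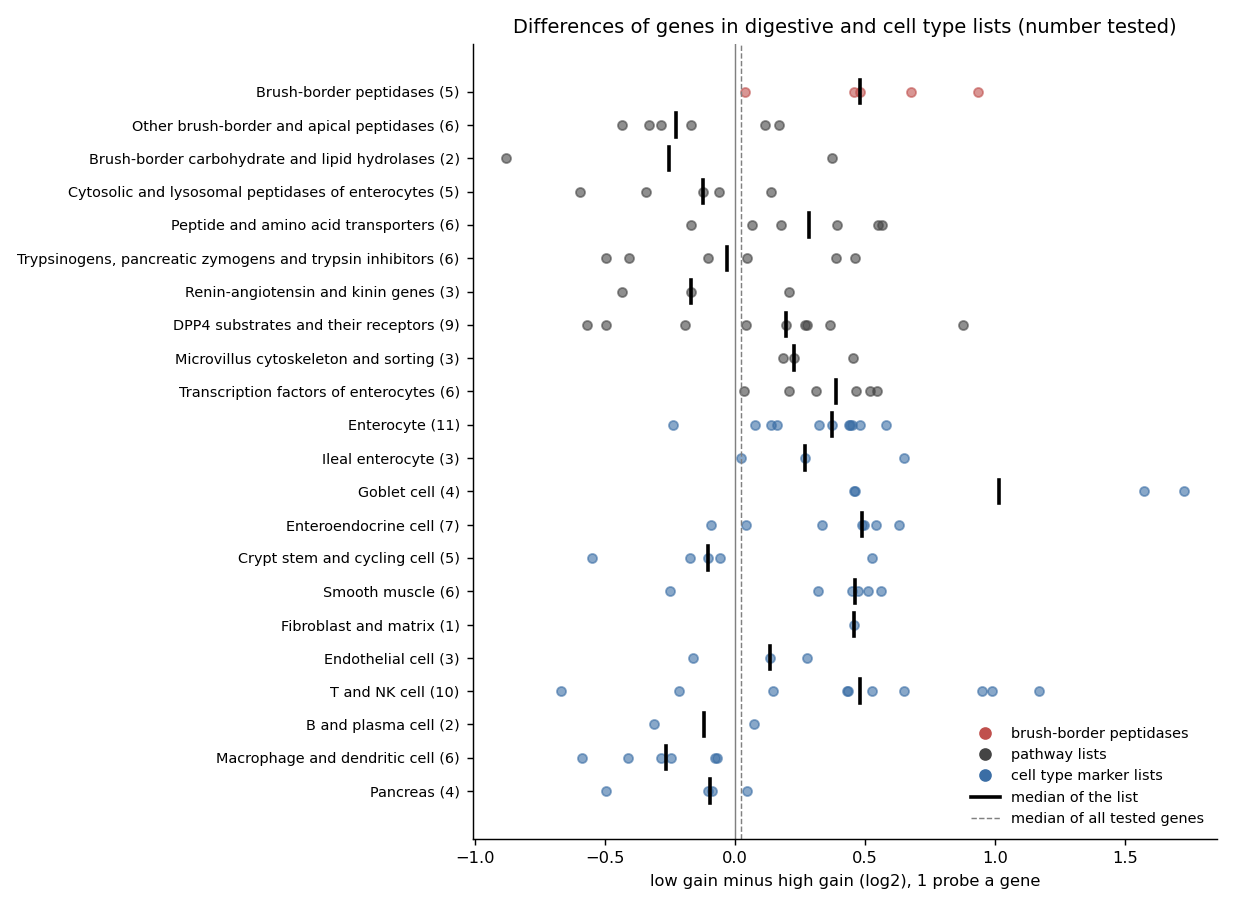
Low gain minus high gain (log2, 1 probe a gene) of the genes in each digestive or cell type list, with the number tested in brackets; thick ticks are list medians and the dashed line is the median of all tested genes (0.025). The 5 peptidases have a median of 0.48, other apical peptidases -0.23 and enterocyte markers 0.37.

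The genes whose profile over the 4 arrays was nearest to that of each peptidase were found among 2153 other genes, by the root mean square distance of centred log2 values. For *ANPEP* they were *PTGES*, *RRP36* and *C9*, at distances of 0.030, 0.030 and 0.039. For *ENPEP* they were *ADM*, *NTN1* and *RND3*, at 0.014 to 0.020, and for *DPP4* they were *GATA6*, *CYP51* and *NTN1*, at 0.018 to 0.023. *NTN1* was thus near to both. For *ACE* they were *MAPKAPK3*, *CELA1* and *SERPINB9*, at 0.022 to 0.025. The nearest to *TMPRSS15* was *EPO*, at 0.035, followed by *AGRP* and *ACVR1B* at 0.144 and 0.158. *EPO* had -4.39 and -5.27 in low gain, against -6.06 and -5.58 in high gain, as dim as *TMPRSS15* itself. With 4 arrays many genes can lie near any profile, and these distances are a description.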

How the data were processed

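Each array was deposited as a scanner file of intensity values, written by Feature Extraction 10.7.3.1 from Agilent per the file headers, with the background, saturation and outlier flags as other deposited values. The processed signal is background-treated and detrended by the scanner software, per the file headers. A second deposit by the authors, a table of log2 values, has unknown processing, not given in the labels or headers used here. It correlated at 0.982 to 0.993 with log2 processed signal over non-control spots (slopes 0.912 to 0.941), it had medians of 5.62 and 5.59 on low-gain arrays and 5.67 and 5.60 on high-gain arrays, and it served as an alternative only. Its centring and background treatment stay unknown.

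Signals were set to log2 and the array's 75th percentile was subtracted. Outlier spots were dropped, repeat spots of a probe were averaged, and probes well above background on both arrays of at least 1 group were tested, 33265 in all. limma 3.58.1 (lmFit, eBayes; R 4.3.3) gave low gain minus high gain, and p-values were adjusted over every tested probe by Benjamini-Hochberg, with 0.05 as the threshold. The fit was tested on simulated data whose added effects were larger than any peptidase difference here. Recovery of smaller effects was not tested. Of 5779 probes with a RefSeq accession 5461 matched the NCBI gene table of Sscrofa11.1. The files name no build, so no coordinates are given. All 4 arrays shared 1 slide and 1 scan. The number of arrays limits the precision.

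Members, gene lists and tests were chosen with earlier results of these data known. Named genes were the 5 peptidases with every probe, every measured gene of the lists of apical peptidases and of carbohydrate and lipid hydrolases, in other lists those past the test or brightest, and the 3 nearest profiles. A few list genes that this rule covers are counted in their lists but not reported here by name. Some further list members are named after their values were seen. In lists, a gene was represented by its brightest tested probe. Alternatives were 2 other scalings, normexp background correction, 2 filters, an intensity trend, the letter as a block, each array left out, the mean over probes and the authors' values. After seeing the data, 3 more were added: normexp with bright local backgrounds (above 100) replaced, scaling to enterocyte markers, and the trend with low-gain array a left out.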

Additional observations from a re-analysis of the deposited data

How the results depend on the processing

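Across the alternatives that measured them, the brightest probes of *ANPEP* (0.39 to 0.69), *ENPEP* (0.19 to 0.54) and *DPP4* (0.17 to 0.54) kept their direction, and so did *TMPRSS15* (0.01 to 1.40). The intensity trend, in which prior variance follows signal, brought *ANPEP* (0.68), *ENPEP* (0.48) and *DPP4* (0.46) past the test with the same differences, so that 3 genes and 5 peptidase probes were called. Normexp with bright backgrounds replaced called 1 gene, *ANPEP* (0.66), and 3 probes. *ACE* A_72_P599978 turned to -0.26 relative to enterocyte markers, to -0.13 as the mean over its probes and to -0.043 with the trend without low-gain array a. With 1 array left out it ran from -0.053 to 0.13, *ANPEP* from 0.67 to 0.69, *ENPEP* from 0.43 to 0.54, *DPP4* from 0.38 to 0.54 and *TMPRSS15* from 0.47 to 1.40, with 0 peptidase calls. Without low-gain array a, even the trend called no peptidase (limma adjusted p = 0.0590 for *ANPEP*). *ANPEP* A_72_P632095 turned to -0.15 relative to enterocyte markers and ran from -0.037 to 0.33 with 1 array left out. *ENPEP* A_72_P442776 turned to -0.082 under normexp, -0.056 in the authors' values, -0.025 with backgrounds replaced and -0.29 relative to enterocyte markers, and ran from -0.23 to 0.23 with 1 array left out. Over the whole array 80 probes passed, against 163 with median centring, 1250 with the trend, 850 with backgrounds replaced, 197 with the trend without low-gain array a, 12 with no filter and 0 with normexp or with signal required on all arrays. With 1 array left out the count ran from 0 to 37. The letter as a replicate block gave 0 calls, with *ANPEP* at 0.68 (limma adjusted p = 0.346). The a minus b differences of the groups correlated at -0.03 across probes, so no shared effect of the letter was seen. That value cannot settle whether the letters pair the samples, which the labels do not say. The causes of these changes were not tested. The smallest difference among those 80 probes was 1.49 in size, beyond that of any peptidase probe. A dim signal limits *TMPRSS15*, whose difference was 0.20 with backgrounds replaced and 0.01 with normexp. A block for slide or scan was not run, because all arrays shared them.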

Other observations

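Transcription factors of enterocytes had higher means in low gain for all 6 tested genes of 15, with a median difference of 0.39 beside 0.025 over all genes, 53.4% of which had higher means in low gain, and none passed the test. *KLF4*, of a factor of post-mitotic epithelium, had 0.42 and 0.42 on low-gain arrays against -0.18 and -0.07 on high-gain arrays, a difference of 0.55, and its other probe gave 0.58. The intensity trend called 2 of the 6 higher, *KLF4* among them (limma adjusted p = 0.038), against 5.19% of all tested genes. *HNF4A* differed by 0.04, but its other probes ran from -0.07 to 0.59.

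Lysosomal peptidases had lower means in low gain. *CTSD*, the cathepsin D gene, had 3.63 and 3.46 in low gain against 4.23 and 4.06 in high gain, a difference of -0.60 (limma adjusted p = 0.188, and 0.0309 with the intensity trend), and its other probe gave -1.01. *CTSH* differed by -0.34 and *CTSB* by -0.06, with its other probes at -1.26 to -0.23. The cytosolic *PREP* differed by 0.14, and its other probe by -0.30. This list of 20 genes had 5 tested, 1 of which, *AP3B1* (-0.12), encodes a vesicle coat subunit and no peptidase. None passed, and the median was -0.12.

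The ileal markers *GUCA2A* and *GUCA2B*, which encode guanylin and uroguanylin, differed by 0.65 and 0.27, neither past the test. Of the 5 tested markers of crypt and cycling cells, among 10, none passed and the median was -0.11. *ASCL2*, of crypt stem cells, differed by 0.53 and *CCNB2*, of mitosis, by -0.55. The intensity trend called *ASCL2* higher and *CCNB2* lower, against 5.19% of all tested genes higher and 1.5% of tested probes lower.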
